A study of Mus musculus with 32 samples.

Results

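The 7 cholesterol synthesis genes Hmgcs1, Idi1, Fdft1, Sqle, Lss, Dhcr7 and Insig1 were followed in cultured chondrocytes of 2 inbred mouse strains, LG/J, which heals wounded cartilage and ear tissue well, and SM/J, which heals poorly. They were taken by symbol, 7 of the 41388 genes in each library's table, and all 7 passed the filter on low counts. 6 of them are enzymes, and Insig1 is a regulator of the pathway and no enzyme. The cells came from the femoral heads of mice 21 days old and were harvested unpassaged after 4 days in medium with 10% serum. The labels name no genetic change or treatment, and each of the 4 groups, LG/J males, LG/J females, SM/J males, SM/J females, had 8 of the 32 libraries. The labels do not say whether the 8 libraries of a group came from separate animals or cultures, and p-values therefore reflect variation among libraries that could be technical.

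Cells build cholesterol from acetyl-CoA through mevalonate, isoprenoids and squalene, and close squalene into the first sterol, lanosterol, which later enzymes turn into cholesterol. When sterols in the endoplasmic reticulum are low, SREBP2 (gene Srebf2) is carried by SCAP to the Golgi, cut there by proteases, and switches on nearly the whole pathway from promoter sites called sterol regulatory elements. Cholesterol serves cell membranes, and it is also attached to the Hedgehog proteins that steer growth plate chondrocytes. Hmgcs1 makes HMG-CoA early in the path, Idi1 interconverts the 5-carbon isoprenoids, Fdft1 makes squalene, Sqle oxidises it and Lss closes the rings. Dhcr7 reduces 7-dehydrocholesterol near the end of the path, where the same compound can instead become vitamin D. Insig1 holds SCAP and SREBP in the endoplasmic reticulum, and its own gene is an SREBP target.

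The promoter sequences are shown because 6 of the 7 genes are described below as varying together within groups, with lower correlations for Dhcr7. RefSeq's promoter table for GRCm38.p6, the C57BL/6J reference and neither strain's own sequence, held 5 of the 7 genes, without Sqle and Fdft1. The lines give the plus strand, 5′ to 3′, up to the RefSeq start or, where it comes earlier, the first annotated exon base. For Hmgcs1 the RefSeq start lies upstream of the start in the deposited tables. Capitals mark TCACNCCAC, the letters searched for as a sterol regulatory element, and CCAAT, the site of NF-Y, which reads ATTGG when it lies on the other strand. They lie at chr13:119690101-119690350 (Hmgcs1), chr5:28071162-28071362 (Insig1), chr10:76531355-76531587 (Lss), chr13:8885356-8885500 (Idi1) and chr7:143822917-143823144 (the first start of Dhcr7). The last line, at chr7:143830119-143830143, holds a CCAAT upstream of the third RefSeq start of Dhcr7, in a stretch that is exon in other transcripts.
Hmgcs1: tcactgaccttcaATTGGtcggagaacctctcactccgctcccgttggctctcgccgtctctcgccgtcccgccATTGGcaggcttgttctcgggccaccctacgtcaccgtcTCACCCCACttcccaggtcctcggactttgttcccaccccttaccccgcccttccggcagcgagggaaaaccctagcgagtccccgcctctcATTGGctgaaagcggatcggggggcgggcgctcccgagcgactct
Insig1: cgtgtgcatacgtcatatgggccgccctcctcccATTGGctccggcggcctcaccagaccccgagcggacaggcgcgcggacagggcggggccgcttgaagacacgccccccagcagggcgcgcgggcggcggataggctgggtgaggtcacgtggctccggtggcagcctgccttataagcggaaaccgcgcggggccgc
Lss: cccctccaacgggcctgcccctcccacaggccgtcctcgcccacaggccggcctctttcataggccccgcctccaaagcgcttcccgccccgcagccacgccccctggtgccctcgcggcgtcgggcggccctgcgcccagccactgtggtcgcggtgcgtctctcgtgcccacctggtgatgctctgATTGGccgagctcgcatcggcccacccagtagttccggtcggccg
Idi1: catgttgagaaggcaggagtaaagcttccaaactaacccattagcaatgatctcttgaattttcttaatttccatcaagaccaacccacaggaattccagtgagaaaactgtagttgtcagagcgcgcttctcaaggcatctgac
Dhcr7 first start: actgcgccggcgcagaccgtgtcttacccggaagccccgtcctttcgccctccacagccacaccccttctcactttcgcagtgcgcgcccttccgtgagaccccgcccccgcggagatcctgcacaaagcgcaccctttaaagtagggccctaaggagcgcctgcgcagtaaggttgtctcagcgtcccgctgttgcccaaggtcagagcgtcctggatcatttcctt
Dhcr7 site: actgccttcaCCAATcacaggacgc

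Counted over the 250 bases before each RefSeq start and on both strands, the sterol regulatory letters were found for Hmgcs1, 137 bases upstream, and in none of the other 4 genes of the 5. The same letters stood in 1.05% of all 32851 promoter windows in the table. CCAAT was found for all 5 genes and in 33.85% of all windows, and GGGCGG, the GC box of Sp1, for all 5 and in 32.74%. Hmgcs1 held 3 CCAAT sites, Insig1 and Lss 1 each, and Idi1 2, which lie beyond its printed stretch. Of the Dhcr7 windows, the third held 2 CCAAT sites and the first held none. Among the 13 other synthesis genes reported here, 12 had a window, and 11 of these held CCAAT, 11 GGGCGG and 0 the sterol regulatory letters. A match in these windows is a match of letters and was not tested as a binding site.

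Total counts per library were 15840330 to 25571598. The summed level of 12 chondrocyte markers was 1767 to 51820 in LG/J libraries (median 37350) and 11290 to 43010 in SM/J libraries (median 25310), in CPM, the read counts divided by library depth as scaled by edgeR's TMM factors. Both LG/J libraries numbered 1 stood apart: the male had a chondrocyte sum of 2837 CPM and the female 1767 CPM, where the other 14 LG/J libraries had at least 17070 CPM. The sum of 12 macrophage markers was 14.8 to 776.2 CPM in LG/J libraries and 50.4 to 870.6 CPM in SM/J libraries, and that of 8 fibroblast and myofibroblast markers 356.8 to 4009 CPM and 1042 to 5762 CPM in LG/J and in SM/J. Sums for 8 adipocyte markers were 41.7 to 417.1 CPM in LG/J and 49.1 to 448.5 CPM in SM/J, and those for 6 endothelial markers 1.10 to 7.64 CPM in LG/J and 1.09 to 8.26 CPM in SM/J. The 10 cell cycle genes summed to 158.3 to 658.8 CPM in LG/J and 158.1 to 792.8 CPM in SM/J. Of the chondrocyte markers 3 of 12 were called higher in LG/J (median log2 fold change 0.54), and 9 of 12 without the LG/J libraries numbered 1 (median 0.715). Of the other genes tested, 3 of 10 macrophage, 3 of 8 fibroblast, 1 of 4 adipocyte and 2 of 10 cell cycle genes were called lower, and 1 fibroblast gene was called higher. Among all genes tested, 16.4% were called higher and 13.5% lower, and 17.1% higher without the LG/J libraries numbered 1. C1qb, C1qc, Adipoq, Plin1, Cidec, Cfd, Cdh5, Tek and Tie1 were too low to be tested. The part of these cell types in the results below was not tested. In bulk RNA, fewer cells of a type and less RNA per cell cannot be told apart. In all, 6 libraries held transcripts of both sexes (numbers 4 and 5 of the LG/J females, 2 and 3 of the SM/J males, 3 and 4 of the SM/J females), and their labels were kept.

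The strain comparison asked whether the good and the poor healers differ. Of the 7 genes, Dhcr7 was the 1 that passed the test, 2.44-fold higher in LG/J chondrocytes, and it passed in both sexes. The other 6 ran through the pathway at levels that overlapped between strains. Sqle, Hmgcs1, Idi1 and Fdft1 had fold changes between -0.35 and -0.26 on the log2 scale and Lss and Insig1 were near 0, and none of these 6 passed at an adjusted p under 0.05. The count of 1 of 7 higher and 0 of 7 lower stands beside 16.4% of all 16136 genes tested called higher in LG/J and 13.5% called lower. At an unadjusted p under 0.05, 4 of the 7 passed, as did 39.2% of all genes.

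**Figure D1:**
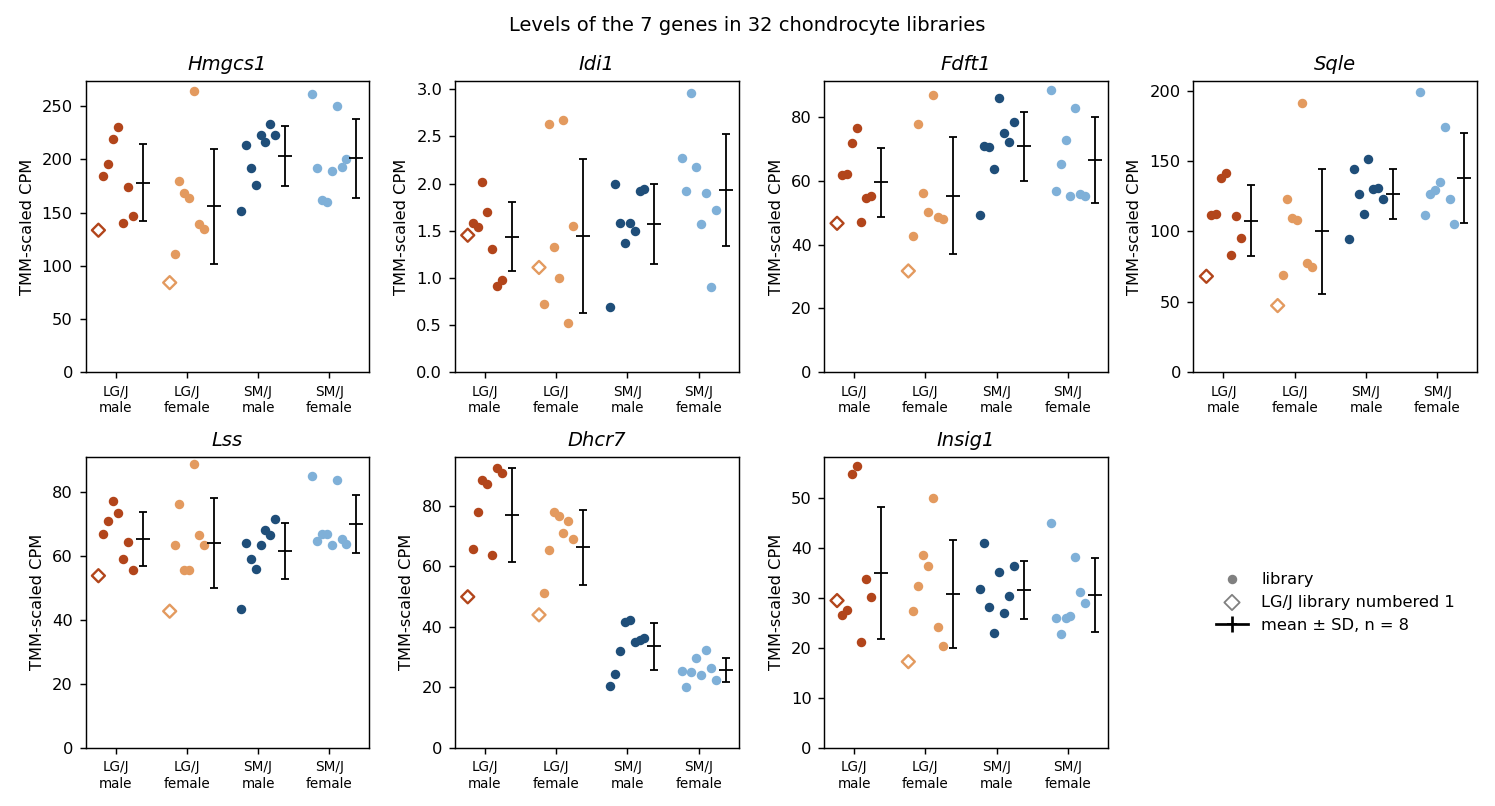
Level of each of the 7 genes (y axis, TMM-scaled CPM from 0) in each of the 32 libraries, by strain and sex, with the mean ± SD of 8 libraries beside each group and open diamonds for the LG/J libraries numbered 1. Dhcr7 is the panel where the lowest LG/J library, at 44.0 CPM, lies above the highest SM/J library, at 42.3 CPM.

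Dhcr7, at chr7:143823145-143848410 on the plus strand (ENSMUSG00000058454), had levels of 49.9 CPM at the lowest, 82.6 at the median and 92.5 at the highest in LG/J males, against 20.5, 35.4 and 42.3 CPM in SM/J males. In LG/J females the lowest, median and highest were 44.0, 70.1 and 78.1 CPM, against 20.2, 25.2 and 32.2 CPM in SM/J females. All 16 LG/J libraries lay above all 16 SM/J libraries, as did 1.36% of all genes tested that were also called higher. The lowest LG/J values were those of the 2 libraries numbered 1. The LG/J mean was 71.7 ± 14.7 CPM, against an SM/J mean of 29.6 ± 7.12 CPM (SD, n = 16 each). The log2 fold change was 1.28 ± 0.10 (SE; edgeR quasi-likelihood test, adjusted p = 6.97e-12). Without the 2 LG/J libraries numbered 1 it was 1.35 ± 0.09 (adjusted p = 2.01e-13), in a fit that called 17.1% of genes higher.

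The 2 LG/J libraries numbered 1, whose chondrocyte sums were below those of every SM/J library, had 49.9 CPM (male) and 44.0 CPM (female) of Dhcr7, against an SM/J maximum of 42.3 CPM. The part of chondrocyte content in the strain difference of Dhcr7 was not tested. Leaving out each library in turn gave fold changes of 1.25 to 1.32 (log2). A stretch of 201 to 227 bases in Dhcr7 transcripts, out of 3784 exon bases, matched transcripts of 22 other genes at 95 to 98.6% identity. Of these, the deposited CPM averaged 15.1 in LG/J and 4.74 in SM/J for Dhtkd1, 33.0 and 42.1 for D10Wsu102e, and 60.1 and 55.5 for Ppil4, in the same order of strains. The part of such shared reads in the Dhcr7 counts was not tested.

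Dhcr7 had fold changes of 1.20 ± 0.15 between males of the 2 strains (adjusted p = 1.16e-07) and 1.37 ± 0.15 between females (adjusted p = 9.86e-09), both log2 ± SE from edgeR. It was the 1 of 7 genes called in each, where 12.8% of all genes were called higher in LG/J males and 6.87% in LG/J females. The strain difference in males minus that in females was -0.16 ± 0.20 (adjusted p = 0.94), with a 95% normal interval from -0.56 to 0.23. None of the other 6 genes passed in either sex. Their log2 fold changes in males were -0.25 (Fdft1), -0.23 (Sqle), -0.19 (Hmgcs1), -0.13 (Idi1), 0.08 (Lss) and 0.15 (Insig1). In females they were -0.47 (Sqle), -0.42 (Idi1), -0.37 (Hmgcs1), -0.27 (Fdft1), -0.13 (Lss) and 0.01 (Insig1).

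Hmgcs1 (chr13:119690462-119708086, plus strand) opens the mevalonate route. Its level was 84.1 CPM at the lowest, 165.9 at the median and 264.7 at the highest in LG/J, against 151.5, 196.4 and 261.3 CPM in SM/J. The ranges overlapped, and the lowest value was that of the LG/J female numbered 1. Its log2 fold change was -0.28 ± 0.11 (edgeR, adjusted p = 0.0607) and -0.21 ± 0.10 without the LG/J libraries numbered 1 (adjusted p = 0.123).

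Idi1 (chr13:8885501-8892451, plus strand), the isomerase, was listed at 11 to 65 reads a library. It had 0.52, 1.39 and 2.68 CPM at the lowest, median and highest in LG/J, and 0.69, 1.81 and 2.97 CPM in SM/J. A processed pseudogene, Gm13502, matches 684 of its bases at 100% identity, and how the counting treated reads with several matches is not given in the sources used here, so its level is uncertain. The log2 fold change of -0.27 ± 0.20 did not pass (edgeR, adjusted p = 0.319).

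Fdft1 (chr14:63145153-63177793, minus strand), the squalene synthase, had 31.8, 55.0 and 87.1 CPM at the lowest, median and highest in LG/J, against 49.4, 70.8 and 88.6 CPM in SM/J. The ranges overlapped, 6 of the 16 LG/J libraries lay below the lowest SM/J library, and the log2 fold change was -0.26 ± 0.11 (edgeR, adjusted p = 0.0769). Its exons overlap 774 bases of Ctsb on the other strand, a gene at 1871 deposited CPM on average. Ctsb averaged 1751 CPM in LG/J and 1990 in SM/J, at a log2 fold change of -0.19 ± 0.13 (edgeR, adjusted p = 0.277). Ctsb was called lower without the LG/J libraries numbered 1, at -0.32 (edgeR, adjusted p = 0.0213). The part of Ctsb reads in the Fdft1 counts was not tested. Without a stated strand setting, reads of the pair cannot be told apart in that overlap.

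Sqle (chr15:59315077-59331192, plus strand) encodes squalene epoxidase, which puts the oxygen onto squalene before the rings are closed. It had 47.2, 108.9 and 191.0 CPM at the lowest, median and highest in LG/J, against 94.7, 127.9 and 199.2 CPM in SM/J. Of the 6 genes it came nearest to the threshold, at -0.35 ± 0.14 (edgeR, adjusted p = 0.0525). By voom, Sqle, Hmgcs1 and Fdft1 were all called (limma, adjusted p = 0.0339, 0.0337 and 0.0486), where 6054 genes were called, against 4826 in the main edgeR fit. In edgeR, Sqle was also called with DESeq2's size factors (adjusted p = 0.0499, 4814 genes called), upper-quartile factors (0.0445, 4819) or a filter of 1 CPM in 8 libraries (0.0463, 4525). With library number as a block, Sqle and Hmgcs1 were called (edgeR, adjusted p = 0.0279 and 0.044), among 5286 genes. Sqle was called when any 1 of 7 libraries was left out (LG/J males 4 and 5, LG/J females 3 and 6, SM/J male 1, SM/J females 2 and 8), with adjusted p of 0.0044 to 0.0458. Hmgcs1 was called without any 1 of 7 libraries (LG/J males 4 and 5, LG/J females 3 and 6, SM/J male 1, SM/J females 3 and 4), with adjusted p of 0.00724 to 0.0492. Fdft1 was called without any 1 of 4 (LG/J male 5, LG/J females 3 and 6, SM/J male 1), with adjusted p of 0.0177 to 0.0484. Without both LG/J libraries numbered 1, which had low levels of all 3, none of the 3 was called, at -0.26 ± 0.12 for Sqle and -0.19 ± 0.10 for Fdft1.

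Lss (chr10:76531588-76557138, plus strand), lanosterol synthase, had 42.8, 64.1 and 88.9 CPM at the lowest, median and highest in LG/J and 43.6, 65.0 and 85.0 CPM in SM/J. The log2 fold change was -0.02 ± 0.08 (edgeR, adjusted p = 0.877), with a 95% normal interval from -0.18 to 0.14, and it turned to 0.03 without the LG/J libraries numbered 1. Insig1 (chr5:28071363-28078662, plus strand) had 17.2, 29.8 and 56.2 CPM in LG/J and 22.8, 29.6 and 44.9 CPM in SM/J. Its log2 fold change was 0.08 ± 0.14 (edgeR, adjusted p = 0.72), with a 95% normal interval from -0.20 to 0.36. The highest Insig1 levels were those of LG/J males 5 and 4, at 56.2 and 54.7 CPM, where the other LG/J males had 21.2 to 33.8 CPM.

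The 2 LG/J libraries numbered 1 were low in most of the 7 genes. In the female, Sqle stood at 43.7% of the median of the other 7 LG/J females, Hmgcs1 at 51.3%, Insig1 at 53.2%, Dhcr7 at 61.9%, Fdft1 at 63.3%, Lss at 67.3% and Idi1 at 83.8%. In the male, Dhcr7 stood at 57.2% of the median of the other LG/J males, Sqle at 61.1%, Hmgcs1 at 72.4%, Fdft1 at 75.6% and Lss at 80.6%, while Idi1 was at 94.3% and Insig1 at 97.6%. At the other end, LG/J female 6 and SM/J female 1 held the highest values of their strains for Hmgcs1, Fdft1, Sqle and Lss.

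Levels between genes were compared per length, as the deposited RPKM. The length was that of all annotated exons, from 2697 bases for Insig1 to 10787 for Lss, and the order depends on it. In TMM-scaled CPM, Lss lay above Insig1 in LG/J, at means of 64.7 and 32.9. The limits given above for the levels of Idi1 and Fdft1 hold here too. In LG/J the order was Hmgcs1 at 52.4 ± 16.02, Fdft1 at 20.4 ± 5.87, Dhcr7 at 19.2 ± 4.52, Sqle at 19.0 ± 7.06, Insig1 at 12.3 ± 4.67, Lss at 6.08 ± 1.32 and Idi1 at 0.41 ± 0.19 RPKM (SD, n = 16). The order of Fdft1, Dhcr7 and Sqle there was not tested: Fdft1 lay above Dhcr7 in 8 of 16 libraries and Dhcr7 above Sqle in 11 of 16. Without the LG/J libraries numbered 1, Sqle, at 20.53 RPKM, came before Dhcr7, at 20.5. In SM/J the order was Hmgcs1 at 62.3 ± 9.92, Fdft1 at 23.9 ± 4.19, Sqle at 23.8 ± 4.65, Insig1 at 11.4 ± 2.25, Dhcr7 at 7.81 ± 1.95, Lss at 6.09 ± 0.95 and Idi1 at 0.50 ± 0.15 RPKM (SD, n = 16). Fdft1 lay above Sqle in 10 of 16 SM/J libraries, and their order was not tested either. Dhcr7 ranked 2 to 4 of the 7 in every LG/J library and 4 to 6 in every SM/J library.

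Set against the start of the pathway in the same library, Dhcr7 per Hmgcs1 (ratio of RPKM) was 0.23 to 0.53 in LG/J with a median of 0.39, against 0.08 to 0.20 in SM/J with a median of 0.12. This ratio did not overlap between strains. For comparison, Sqle per Hmgcs1 was 0.30 to 0.42 in LG/J and 0.31 to 0.47 in SM/J, with medians of 0.36 and 0.38. These ranges overlapped from 0.31 to 0.42. Dhcr7 per Fdft1 was 0.62 to 1.28 in LG/J and 0.22 to 0.49 in SM/J, and Dhcr7 per Sqle 0.54 to 1.42 and 0.19 to 0.54 in the same order. Dhcr7 per Lss was 2.28 to 4.64 in LG/J and 0.85 to 2.12 in SM/J. The ratios to the remaining members did overlap between strains. Dhcr7 per Insig1 was 1.015 to 2.435 in LG/J and 0.40 to 1.302 in SM/J, and Dhcr7 per Idi1 22.95 to 134.7 and 7.795 to 28.13. These ratios carry the strain difference of Dhcr7 and are given with no test.

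**Figure D2:**
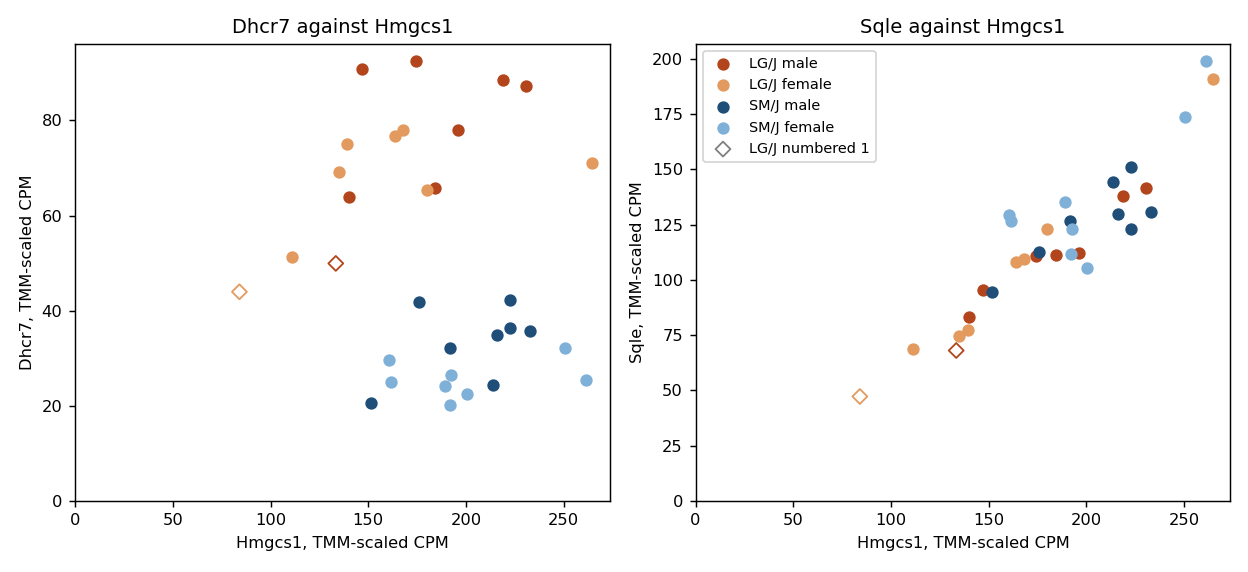
Levels of Dhcr7 (left) and of Sqle (right) against Hmgcs1, each in TMM-scaled CPM from 0, with 1 point per library coloured by strain and sex and open diamonds for the LG/J libraries numbered 1. In the Sqle panel both strains lie along 1 band, while in the Dhcr7 panel the LG/J libraries, from 44.0 to 92.5 CPM, lie above the SM/J libraries, from 20.2 to 42.3 CPM.

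Within groups, most of the 7 genes were high or low in the same libraries. Correlations were computed on log2 CPM after removing group means, over the 30 libraries left without the LG/J libraries numbered 1, with 100000 permutations within groups and p adjusted over the 21 pairs. Of the 15 pairs without Dhcr7, 14 passed at an adjusted p under 0.05, with a median Pearson r of 0.748. Hmgcs1 and Sqle had r = 0.902 and Spearman's rho = 0.877, both with a permutation p of 1e-05, the smallest these permutations can give (adjusted p of 3e-05 and 4e-05). Without the 2 libraries farthest from the Hmgcs1 median, r was 0.845, and it was 0.973 in the 14 LG/J and 0.766 in the 16 SM/J libraries. Fdft1 and Sqle had r = 0.899 and rho = 0.845 (permutation p = 1e-05 for both), with 0.873 without the 2 farthest libraries, 0.923 in LG/J and 0.874 in SM/J.

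Lss and Fdft1 had r = 0.84 and rho = 0.841 (permutation p = 1e-05 for both), with 0.774 without the 2 libraries farthest from the Fdft1 median. Insig1 went with Sqle at r = 0.775 and rho = 0.747 (permutation p = 1e-05 for both), and at 0.771 without the 2 farthest. Idi1 and Insig1 were the pair without Dhcr7 that did not pass, at r = 0.31 (permutation adjusted p = 0.14).

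The correlations of Dhcr7 were lower: its 6 pairs had a median r of 0.348, and 2 of the 6 passed. These were Fdft1, at r = 0.469 (permutation p = 0.008, adjusted 0.012) and rho = 0.4 (adjusted p = 0.043), and Sqle, at r = 0.392 (permutation p = 0.02, adjusted 0.027) and rho = 0.325 (adjusted p = 0.107). With Hmgcs1 it had r = 0.361 (permutation adjusted p = 0.053), with Lss 0.334 (0.118), with Insig1 0.198 (0.285) and with Idi1 0.153 (0.418). Within strains, with Lss it had r of -0.025 in LG/J and 0.572 in SM/J, with Fdft1 0.289 and 0.638 in the same order, with Sqle 0.395 and 0.445, with Hmgcs1 0.409 and 0.359, with Idi1 -0.011 and 0.31, and with Insig1 0.499 and -0.073. Over all 32 libraries Dhcr7 had r of 0.508 to 0.594 with Lss, Hmgcs1, Sqle and Fdft1, 0.326 with Insig1 and 0.144 with Idi1. Neither the difference between strains nor that between these and the other correlations was tested. Libraries of a group share handling, and 6 pairs of libraries were closer to each other than the rest, so these 30 points may not be independent cultures.

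**Figure D3:**
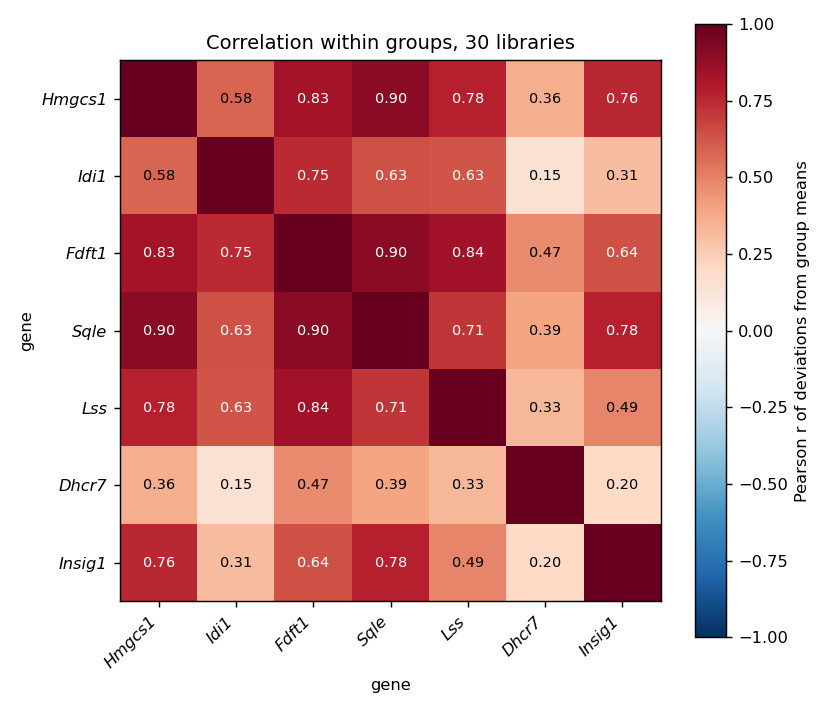
Pearson r between the 7 genes, computed over 30 libraries on log2 CPM with group means removed (colour and printed value). The block of Hmgcs1, Fdft1, Sqle and Lss is at 0.71 to 0.90, and the row of Dhcr7 is paler, at 0.15 to 0.47 against the other 6 genes.

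The genes most like the 7 were ranked by their mean r with them over the same 30 libraries, among 8350 genes whose log2 CPM averaged 3 or more. Cyp51, lanosterol demethylase, came first with a mean r of 0.723. Fdps, which makes farnesyl diphosphate, followed at 0.706 and Msmo1, a sterol methyl oxidase, at 0.673. Nav1 (0.636), Aacs (0.632), Pdha1 (0.624), Serpine2 (0.618), Cldnd1 (0.617), Mvk (0.613) and G6pdx (0.613) completed the 10. Over all 32 libraries, 7 of these 10 were again among the 10 most like. Srebf2 ranked 61 at a mean r of 0.5.

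Among the 13 other synthesis genes reported here, 0 were called higher and 2 lower in LG/J, both with all libraries and without the LG/J libraries numbered 1. With all libraries, 16.4% of all genes tested were called higher and 13.5% lower. Without the LG/J libraries numbered 1, 5224 of 16229 genes were called, 2772 of them higher and the rest lower. The median log2 fold change of these 13 genes was -0.16, against -0.26 for the 7 members and 0.02 for all genes tested. Acat2, which joins 2 acetyl-CoA at the start, was lower at -0.55 ± 0.08 (edgeR, adjusted p = 1.51e-06). However, its transcripts share near-identical stretches with Acat3 and, on the opposite strand, with Tcp1 (445 bases at 98.7% identity). Nsdhl, a sterol dehydrogenase, was lower at -0.48 ± 0.13 (edgeR, adjusted p = 0.00507), but was not called when the 6 libraries holding transcripts of both sexes were left out (adjusted p = 0.0832). The 11 others, Mvk, Pmvk, Mvd, Fdps, Cyp51, Tm7sf2, Lbr, Msmo1, Hsd17b7, Ebp and Sc5d, had fold changes between -0.39 and 0.16 and did not pass.

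**Figure D4:**
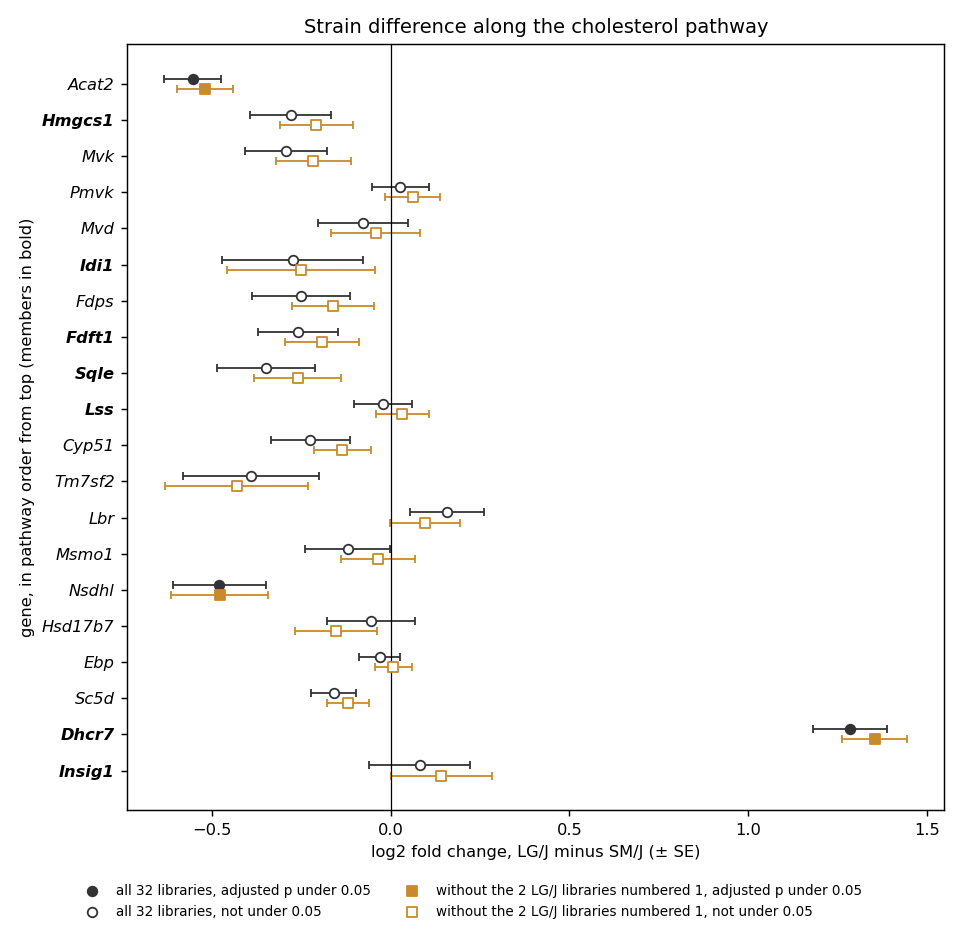
Strain difference (x axis, log2 fold change of LG/J minus SM/J ± SE from edgeR) of the synthesis genes in pathway order and of Insig1, with all 32 libraries (dark) and without the LG/J libraries numbered 1 (orange), filled where the adjusted p was under 0.05. Dhcr7 at 1.28 lies on the right, Acat2 at -0.55 and Nsdhl at -0.48 on the left, and the remaining members lie between -0.35 and 0.08.

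Of 12 regulators of SREBP, 2 were called higher and 1 lower in LG/J, beside 16.4% and 13.5% of all genes tested. Srebf2 itself was at 0.13 ± 0.09 (edgeR, adjusted p = 0.296), Srebf1, the SREBP of fatty acid synthesis, at 0.14 ± 0.14 (adjusted p = 0.483) and Scap at -0.21 ± 0.09 (adjusted p = 0.0726), none of which passed. Scap was called without any 1 of 4 libraries (LG/J males 2 and 5, LG/J female 4, SM/J female 8), with adjusted p of 0.0381 to 0.0466. Insig2, the second INSIG protein, was lower at -0.52 ± 0.07 (edgeR, adjusted p = 9.81e-07). Erlin2, which takes part in protein degradation at the endoplasmic reticulum, was higher at 0.55 ± 0.06 (adjusted p = 1.69e-09). Faf2, of the same degradation machinery, was higher at 0.15 ± 0.05 (edgeR, adjusted p = 0.0332), a call lost in 15 of the 32 fits with 1 library left out (adjusted p up to 0.0717). Those libraries were LG/J males 3, 4, 5 and 7, LG/J females 2, 4, 5, 7 and 8, SM/J males 3, 5 and 6 and SM/J females 4, 5 and 6.

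The sexes were compared within each strain, with the 6 libraries holding transcripts of both sexes kept under their labels. Without these 6, 0 of the 7 genes were called in either strain, where edgeR called 11 genes in LG/J and 490 in SM/J. None of the 7 genes was called between LG/J males and LG/J females, where 0.0496% of all genes were called, and the same count came from DESeq2 and from voom. At an unadjusted p under 0.05, 0 of 7 passed, beside 5.57% of all genes. The log2 fold changes, male minus female, were 0.22 (Dhcr7), 0.19 (Hmgcs1), 0.18 (Insig1), 0.11 (Fdft1), 0.11 (Sqle), 0.02 (Lss) and -0.01 (Idi1), with SE of 0.11 to 0.28.

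In SM/J, where 5.76% of all genes were called between the sexes, none of the 7 was called by edgeR or DESeq2 and 1 by voom, and 1 had an unadjusted p under 0.05 in edgeR, as did 19.2% of all genes. That gene was Dhcr7, at 33.5 ± 7.71 CPM in SM/J males and 25.7 ± 3.83 CPM in SM/J females (SD, n = 8 each), with a log2 fold change of 0.38 ± 0.14 (edgeR, adjusted p = 0.12) and 0.42 ± 0.12 by voom (limma, adjusted p = 0.0194). In edgeR it passed without the 2 LG/J libraries numbered 1, which enter this fit through the shared spread, at 0.39 ± 0.12 (edgeR, adjusted p = 0.0475, where that fit called 8.64% of genes). The others were at 0.09 (Fdft1), 0.05 (Insig1), 0.02 (Hmgcs1), -0.12 (Sqle), -0.19 (Lss) and -0.29 (Idi1), with SE of 0.11 to 0.28. No strain difference of the 7 genes differed between the sexes (0 called and 0 at an unadjusted p under 0.05 by edgeR, 0 by DESeq2 and by voom, where edgeR called 0.0062% of all genes), with values of -0.16 (Dhcr7), 0.02 (Fdft1), 0.14 (Insig1), 0.18 (Hmgcs1), 0.21 (Lss), 0.23 (Sqle) and 0.29 (Idi1).

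The genes around Dhcr7 and Hmgcs1 were looked up in windows of 500 kb on each side, a choice made after their values were seen. Around Dhcr7, 6 of 12 tested genes were called between strains, against 29.9% of all genes. They included 3 receptors of the TNF family upstream: Tnfrsf23 at a log2 fold change of 6.83 ± 0.30, Tnfrsf26 at 4.92 ± 0.55 and Tnfrsf22 at 2.004 ± 0.20 (edgeR, adjusted p = 1.75e-18, 2.14e-08 and 2.03e-09). Nearer to Dhcr7, Mrgpre was higher at 0.69 ± 0.13 and Osbpl5 at 0.50 ± 0.07 (edgeR, adjusted p = 7.27e-05 and 2.42e-06). Nap1l4 was lower, at -0.15 ± 0.05 (edgeR, adjusted p = 0.0252). Nadsyn1, whose start lies 0.3 kb from that of Dhcr7 and which makes NAD, was at 0.16 ± 0.10 and did not pass (edgeR, adjusted p = 0.234). Around Hmgcs1, all 8 tested neighbours were called, among them 4833420G17Rik at 2.50 ± 0.09 and Paip1 at 0.99 ± 0.07, while Hmgcs1 itself was not. These neighbours went both ways: an unnamed gene 83.8 kb upstream was lower, at -0.89 ± 0.13 (edgeR, adjusted p = 2.25e-06). Without the LG/J libraries numbered 1, 6 of 7 were called: Nim1k, at -0.41 ± 0.16 (edgeR, adjusted p = 0.0478), was then not called (adjusted p = 0.105), and 3110070M22Rik, averaging 0.49 CPM over the LG/J libraries and 0.09 over the SM/J libraries, was too low to be tested. Of the genes around the other members, 0 of 9 were called near Fdft1 (1 of 9, Ctsb, without the LG/J libraries numbered 1), 0 of 12 near Lss, 0 of 3 near Insig1, 1 of 5 near Idi1 and 2 of 9 near Sqle.

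**Figure D5:**
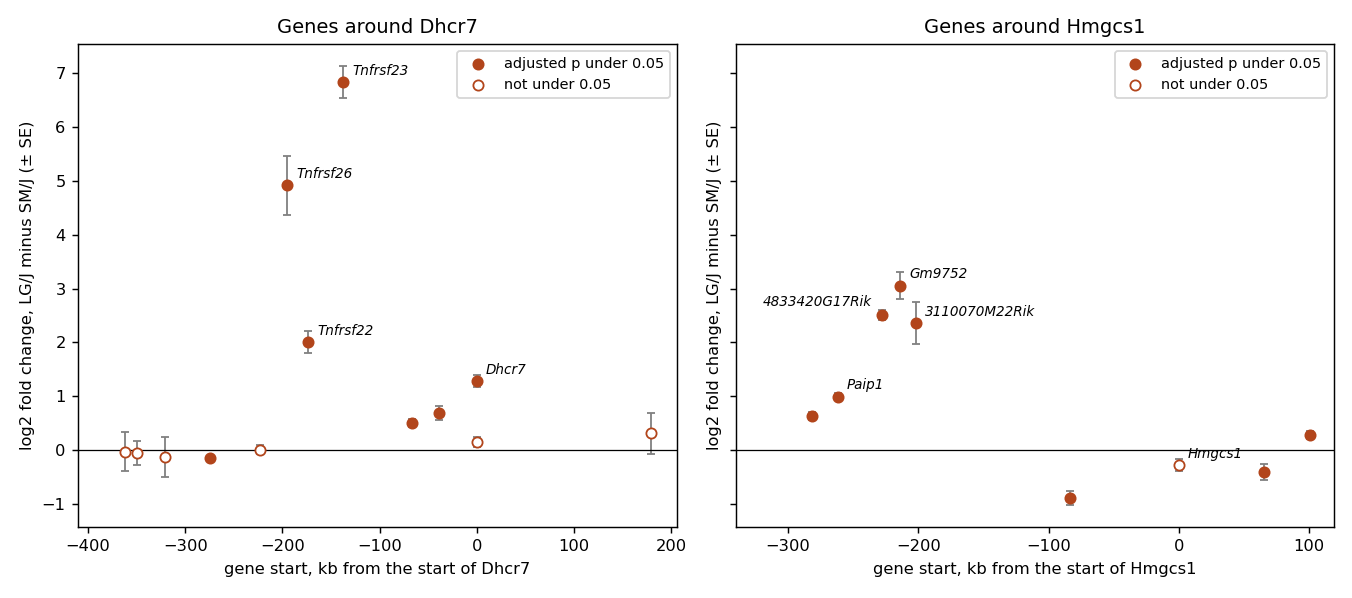
Strain difference (y axis, log2 fold change of LG/J minus SM/J ± SE from edgeR) of the genes tested within 500 kb of Dhcr7 (left) and of Hmgcs1 (right), against the distance of their start from the member's start in kb, filled where the adjusted p was under 0.05. Dhcr7 at 1.28 lies next to Nadsyn1 at 0.16, with Tnfrsf23 at 6.83 and Tnfrsf26 at 4.92 farther off, at -137.3 and -195.3 kb. Hmgcs1 at -0.28 is open among 8 filled neighbours.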

How the data were processed

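Per the labels' protocols, a SMARTer kit was used for the libraries. STAR 2.0.4b (alignment, GRCm38) and featureCounts 1.45 (counting) are named in the submitters' processing notes; strand setting and handling of reads with several matches: not given in the sources used here. Deposited by the authors were whole-number counts per gene for each library, with CPM and RPKM beside them. The deposited CPM equalled count over library total and the deposited RPKM that CPM over gene length. Symbols were found for 40254 of 41388 IDs, and IDs without one held 0.109% of counts.

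Counts were filtered with filterByExpr (16136 genes kept), scaled by TMM and fitted in edgeR 4.0.16 (quasi-likelihood, robust, R 4.3.3) with 1 mean per group over all 32 libraries. Benjamini-Hochberg adjustment ran over all genes kept, with calls at an adjusted p under 0.05; SE is the fold change over the square root of F. Sequence matches came from blastn 2.17.0 and GENCODE transcripts. The members and all gene lists were chosen with earlier results of these data known. Named by rule were the 7 members, Srebf2, Srebf1 and Scap, every called synthesis gene and SREBP regulator, up to 4 called genes of each other metabolic list, and the 10 genes most like the members. Some genes of these lists are not reported here and were left out of list counts and rankings, though not of the fit. Genes near the members, and those sharing sequence with them, were named after their values were seen. Alternatives were other scalings, filters and tools (DESeq2 1.42.0, limma 3.58.1 voom), a block on library number, and libraries left out or summed.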

Additional observations from a re-analysis of the deposited data

Results flagged for a closer look

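In groups of 8 libraries, a library was set apart when its gap to the nearest other exceeded Dixon's 95% value. Chance gives this in about 1 of 20 groups, and 100 groups of 25 genes were looked at. None of the 7 members was set apart in any group. Cyp7b1, an oxysterol hydroxylase, was far above the rest in both LG/J libraries numbered 1, at 59.8 CPM in the male (the other LG/J males at 5.23 to 12.5) and 72.1 CPM in the female (the other LG/J females at 4.69 to 12.3). Faf2 was lowest in LG/J male 1, at 145.7 CPM against at least 181.0. LG/J female 2 had the highest Scd2, at 757.1 CPM against at most 348.2, and the highest Scd1, at 214.5 CPM against at most 141.8. SM/J female 1 had the highest Scd2 of its group, at 400.4 CPM against at most 294.8. Among SM/J males, number 2 had the highest Srebf2, at 41.3 CPM against at most 32.1, and number 1 the highest Scap, at 16.5 CPM against at most 13.0.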

How the results depend on the processing

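Dhcr7 was called higher in LG/J over both sexes and in each sex under every alternative run, at 1.22 to 1.35 (log2) over both sexes. The count of members called over both sexes was 1, and 2 with DESeq2's size factors, upper-quartile factors or a CPM of 1 in 8 libraries (Sqle added), 4 with voom and 1 to 4 with single libraries left out. Of all genes, the main fit called 4826 over both sexes and voom 6054. The 2 scalings and the filter that added Sqle called 4814, 4819 and 4525, in the order given. By a rule that every same-number pair correlate over 0.1, library numbers were not taken to pair the samples. Of 48 such pairs 30 did, with a median of 0.138 and a range from -0.447 to 0.844, and 7 of 32 libraries were closest to their own number. Whether libraries of the same number shared handling was not tested. With the number as a block, 5286 genes and 3 members were called over both sexes (Sqle and Hmgcs1 added). That fit called 1433 genes and 1 member between SM/J sexes and 0 genes in the strain-by-sex comparison. Between SM/J sexes, Dhcr7 made 1 member called with voom, without the LG/J libraries numbered 1 and without these and the 6 with transcripts of both sexes (8 libraries).

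Counts of all genes moved most in the smaller comparisons. In males, 3600 genes differed by strain and 5636 with voom. Between LG/J sexes it was 8 genes, and 4 by library size, 19 with DESeq2, 14 with voom, 31 without the 8 libraries and 3 with close pairs summed. Between SM/J sexes it was 929, and 388 without a filter, 2422 with voom, 1402 without the LG/J libraries numbered 1, 490 without the 6 libraries and 184 with close pairs summed. The strain difference depended on sex for 1 gene, and for 46 with DESeq2, 256 with voom and 0 by library size, without a filter, without the 6 or the 8 libraries and with close pairs summed. Leave-one-out fits over both sexes called 4493 to 5151 genes, against 4826. The causes were not tested.

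Values near 0 changed sign. Over both sexes, Lss went to 0.002 by library size, 0.032 without the LG/J libraries numbered 1 and 0.075 without the 8, with -0.065 to 0.012 over single libraries left out. Insig1 went to -0.002 without the 6 libraries and Cyp7b1 to -0.192 without the 8. In females, Lss went to 0.024 without the 8 libraries, and Insig1 to -0.020 with voom, -0.013 with the block, -0.202 without the 6, -0.071 without the 8 and -0.025 with close pairs summed. Between SM/J sexes, Hmgcs1 went to -0.031 by library size, -0.002 with voom, -0.087 without the 6, -0.078 without the 8 and -0.058 with close pairs summed, and Insig1 to -0.003 by library size, -0.026 with voom, -0.106 without the 6 and -0.096 without the 8. Between LG/J sexes, Idi1 went to 0.009 without a filter, 0.163 with voom and 0.080 with the block, Fdft1 to -0.002 and Sqle to -0.010 with close pairs summed, and Lss to -0.025 by library size, -0.008 without the LG/J libraries numbered 1, -0.036 without the 6, -0.108 without the 8 and -0.053 with close pairs summed. In the strain-by-sex comparison, Fdft1 went to -0.038 with upper-quartile factors, -0.019 with voom, -0.031 without the LG/J libraries numbered 1, -0.004 without the 6, -0.096 without the 8 and -0.074 with close pairs summed. Depth limits Idi1 most, at 11 to 65 reads a library.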

Other observations

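Fatty acid synthesis genes, the other branch under SREBP control, had 5 of 12 called higher in LG/J and 0 lower, with a median log2 fold change of 0.16 (0.02 for all genes tested). Of all genes tested, 16.4% were called higher and 13.5% lower. Me1, which supplies NADPH, was at 0.88 ± 0.12 (edgeR, adjusted p = 6.05e-07), Scd1, a desaturase, at 0.62 ± 0.11 (2.41e-05), Acly, which makes acetyl-CoA from citrate, at 0.25 ± 0.05 (0.000563) and Scd2 at 0.51 ± 0.14 (0.00576).

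The next counts stand beside 16.4% of all genes tested called higher in LG/J and 13.5% called lower. The fit without the LG/J libraries numbered 1 called 5224 of 16229 genes, 2772 of them higher (17.1% of all genes tested) and the rest lower. Of 10 cholesterol uptake and transport genes tested and reported here, 0 were called higher and 1 lower, Nceh1, a cholesteryl ester hydrolase, at -0.34 ± 0.10 (edgeR, adjusted p = 0.013). Of 10 LXR and efflux genes, 2 were called higher and 1 lower; without the LG/J libraries numbered 1 it was 1 and 4. Nr1h3, which encodes LXR alpha, was at -0.69 ± 0.09 (edgeR, adjusted p = 7.69e-07). Apoe was at 1.29 ± 0.43 (adjusted p = 0.0236), and at 1.12 (adjusted p = 0.0506) without LG/J female 4. Cyp7b1 was at 0.98 ± 0.36 (adjusted p = 0.0391), and at 0.11 ± 0.18 (adjusted p = 0.682) without the LG/J libraries numbered 1. It was also not called without any 1 of 10 libraries (LG/J male 1, LG/J female 1, SM/J males 3, 4, 6 and 8, SM/J females 1, 3, 4 and 6), with adjusted p of 0.051 to 0.205. Of 8 isoprenoid genes, 1 was called higher, Ggps1 at 0.23 ± 0.07 (edgeR, adjusted p = 0.00931), and 1 lower, Pdss1 at -0.49 ± 0.15 (adjusted p = 0.0142); without the LG/J libraries numbered 1 it was 3 and 1. When the 6 libraries holding transcripts of both sexes were left out, Nceh1 (-0.34), Apoe (0.69), Cyp7b1 (0.91), Ggps1 (0.135) and Pdss1 (-0.37) were not called, nor was Faf2 (0.11), with adjusted p of 0.0553 to 0.3.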
